A study of Rattus norvegicus with 4 samples.

Results

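Chromatin-remodelling and repressor genes were followed on 4 arrays of rat hippocampal CA3 RNA, covering the SWI/SNF, ISWI and CHD remodellers, the chromobox proteins and the histone deacetylases. Members were the genes whose single annotated symbol belonged to the Smarc, Arid1, Arid2, Chd, Cbx or Hdac numbering, with each gene read on the probe set that was brightest on average. The rule found 40 genes, on 82 of 31099 probe sets, among 14217 named genes in all. The arrays came from Sprague-Dawley rats, 24 h after an injection into the hippocampus. The injection was PBS (vehicle), kainic acid (KA), KA with the peptide NAP, or NAP with no KA. Each group had 1 array, and the labels do not give the age of the animals or say whether an array held RNA of a single animal or of a pool. With 1 array a group there is no replicate error, so every value below is a single measurement and every difference is a description of these 4 arrays without a test.

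SWI/SNF complexes use an ATPase to slide or evict nucleosomes and are assembled from subunits that exist in alternative versions, some typical of dividing progenitors and others of neurons. ISWI and CHD ATPases space or move nucleosomes in complexes of their own. Chromobox proteins read methylated histone tails, HP1 proteins in heterochromatin and the Polycomb chromoboxes in Polycomb repressive complexes, and histone deacetylases remove acetyl groups. ADNP, the protein from which the NAP sequence comes, is known to bind HP1 and CHD4 and to contact SWI/SNF, which is why these families are of interest beside the peptide.

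The promoter windows of Cbx7 and Smarca2, members that were low together on both arrays with KA, are given first. They are RefSeq sequences on GRCr8, from 250 bases before to 50 after the annotated start. Capitals mark the GC box (GGGCGG) and the CCAAT box (CCAAT), each searched on both strands.
Cbx7, chr7:113358297-113358596, minus strand: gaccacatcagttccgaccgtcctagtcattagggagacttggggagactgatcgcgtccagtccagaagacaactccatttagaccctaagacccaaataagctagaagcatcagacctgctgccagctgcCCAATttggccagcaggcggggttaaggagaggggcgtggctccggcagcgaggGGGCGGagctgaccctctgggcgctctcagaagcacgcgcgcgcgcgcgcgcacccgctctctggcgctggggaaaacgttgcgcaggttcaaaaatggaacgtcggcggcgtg
Smarca2, chr1:233617121-233617420, plus strand: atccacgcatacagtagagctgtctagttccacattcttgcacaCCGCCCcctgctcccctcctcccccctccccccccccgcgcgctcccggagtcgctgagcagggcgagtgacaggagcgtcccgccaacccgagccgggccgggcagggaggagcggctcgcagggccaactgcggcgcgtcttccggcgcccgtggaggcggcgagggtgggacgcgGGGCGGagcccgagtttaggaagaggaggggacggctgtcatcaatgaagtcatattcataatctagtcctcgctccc
Smarca2 held 2 GC boxes and 29 CpG dinucleotides, and Cbx7 held 1 GC box, 1 CCAAT box and 26 CpG dinucleotides. A promoter sequence was matched for 34 of the 40 members. The Smarca5 window, with 52 CpG dinucleotides, entered the counts below but was not printed because it appears to include coding sequence. The median member promoter held 26 CpG dinucleotides, against 12 over 19005 protein-coding promoters of the same length. A GC box occurred in 30 of the 34 (88.2%) and in 43.1% of all promoters. A CCAAT box occurred in 11 of the 34 (32.4%) and in 38.4% of all. Motifs of E2F, CRE and ETS type were searched as well. They occurred in 3, 1 and 1 of the 34 (8.82%, 2.94% and 2.94%), against 2.82%, 2.22% and 4.99% of all. These are matches of letters and show no binding.

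Of the 40 members, 36 had a mean intensity above 62.75, the median of all probe sets other than controls, and entered the comparisons beside 9489 genes in all. The nearest member above that limit was Smarcd2 at a mean of 73.0, and the nearest below was Cbx8 at 49.8. The 4 dim members were Cbx2, a Polycomb chromobox gene, at 10 to 25 on the 4 arrays, Cbx8 at 42 to 57, the class IIa deacetylase Hdac7 at 40 to 63, and the deacetylase Hdac10 at 18 to 41. Their intensities are listed as measured, and no difference is read from them. The text gives differences as log2(intensity + 10), a scale that understates those of dim genes. Fixed sizes of 1.5-fold and 2-fold describe them.

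**Figure D1:**
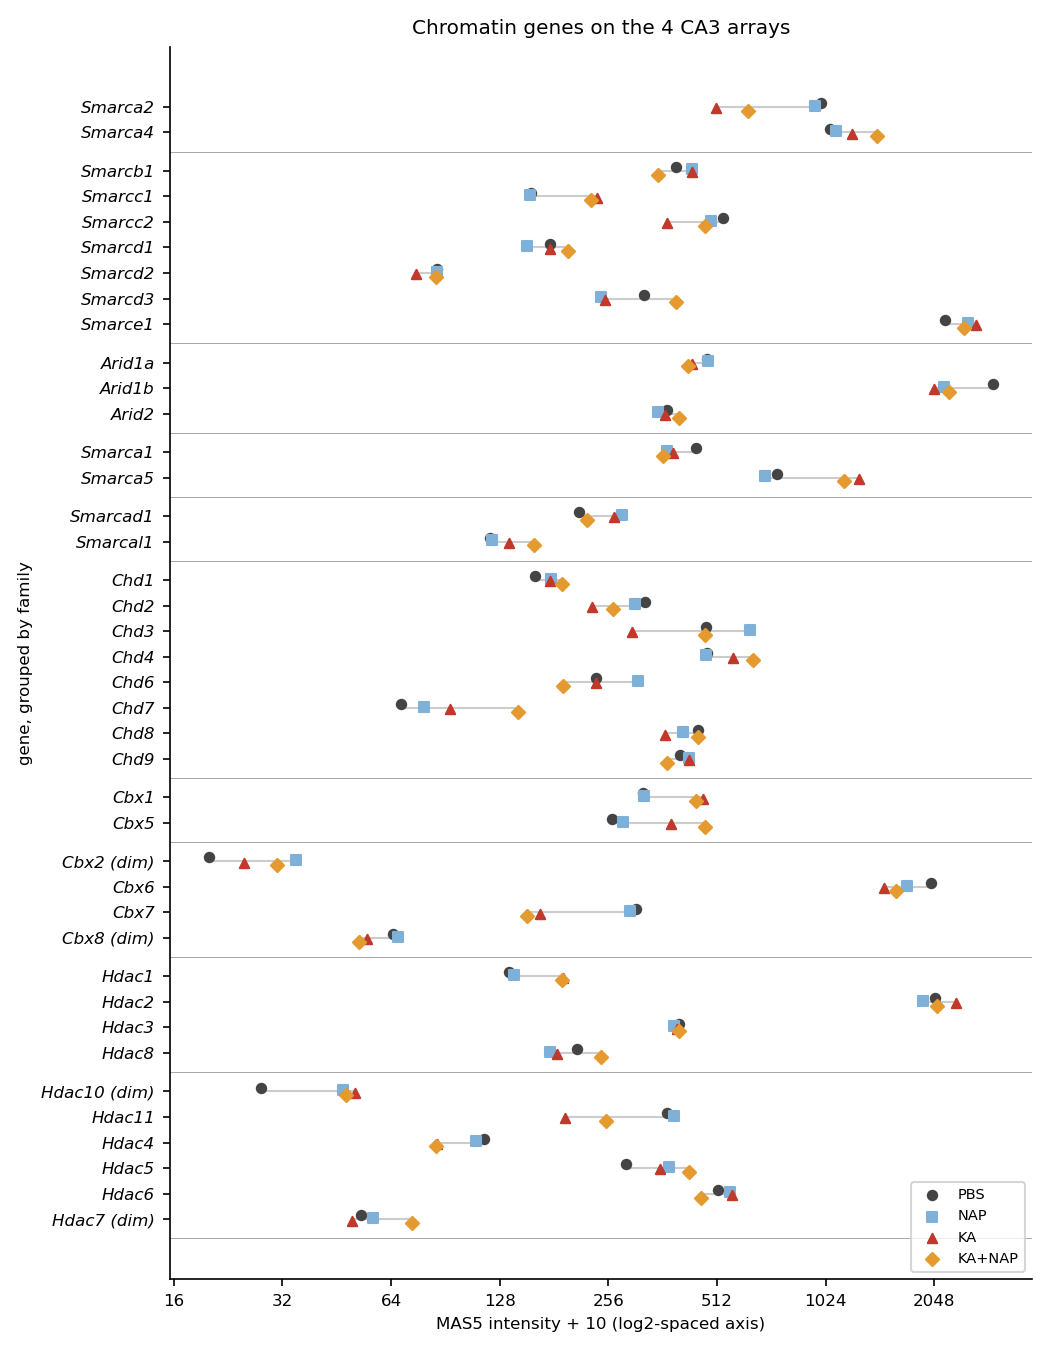
Intensity plus 10 of the 40 chromatin genes (rows, grouped by family) on a log2-spaced axis, with 1 point for each of the 4 arrays and the 4 genes below the intensity limit written as dim. Rows are to be read along themselves, since probe sets differ in brightness: the KA and KA+NAP points of Smarca2, Cbx7 and Hdac11 lie left of PBS and NAP, and those of Smarca5, Smarcc1, Cbx1 and Cbx5 lie right.

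KA was compared with PBS, and KA+NAP with NAP, to describe the toxin's response without and with the peptide. No member was 2-fold apart in either comparison, but the families were not uniform. The SWI/SNF ATPase Smarca2, the Polycomb chromobox Cbx7 and the deacetylase Hdac11 were lower by at least 1.5-fold in both, and the ISWI ATPase Smarca5 was higher by at least 1.5-fold in both. In KA minus PBS, 2 of 36 members were at least 1.5-fold higher, where 12.5% of all genes were, and 4 of 36 were at least 1.5-fold lower, where 9.66% of all genes were. At 2-fold, 4.91% of all genes were higher and 2.39% lower there. In KA+NAP minus NAP, 4 of 36 were at least 1.5-fold higher (13.9% of all genes) and 4 of 36 at least 1.5-fold lower (9.41%). At 2-fold, 5.67% of all genes were higher and 2.41% lower. The shares of members past 1.5-fold thus lay near or under those of all genes, and the values of single members follow.

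The median member differed by −0.01 in KA minus PBS and by 0.04 in KA+NAP minus NAP, against 0.02 and 0.03 over all genes. Both arrays with KA lay above both arrays without it for 10 of the 36 members, as for 32.3% of all genes, and below both for 11 of the 36, as for 28.7%. The members above were Smarca4, Smarca5, Smarcc1, Smarcal1, Chd4, Chd7, Cbx1, Cbx5, Hdac1 and Hdac2. The members below were Smarca2, Smarcc2, Smarcd2, Arid1a, Chd2, Chd3, Chd6, Cbx6, Cbx7, Hdac4 and Hdac11. For the other 15 the arrays with and without KA overlapped. The 2 KA differences share no array. Across the 36 members Pearson r was 0.68 and Spearman rho 0.63, and across all 9489 genes they were 0.70 and 0.61. These are descriptions over genes of the same 4 arrays, and genes are not independent replicates. 12 members lay above 0 in both differences and 12 below 0 in both, 66.7% on the same side against 70.9% of all genes.

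**Figure D2:**
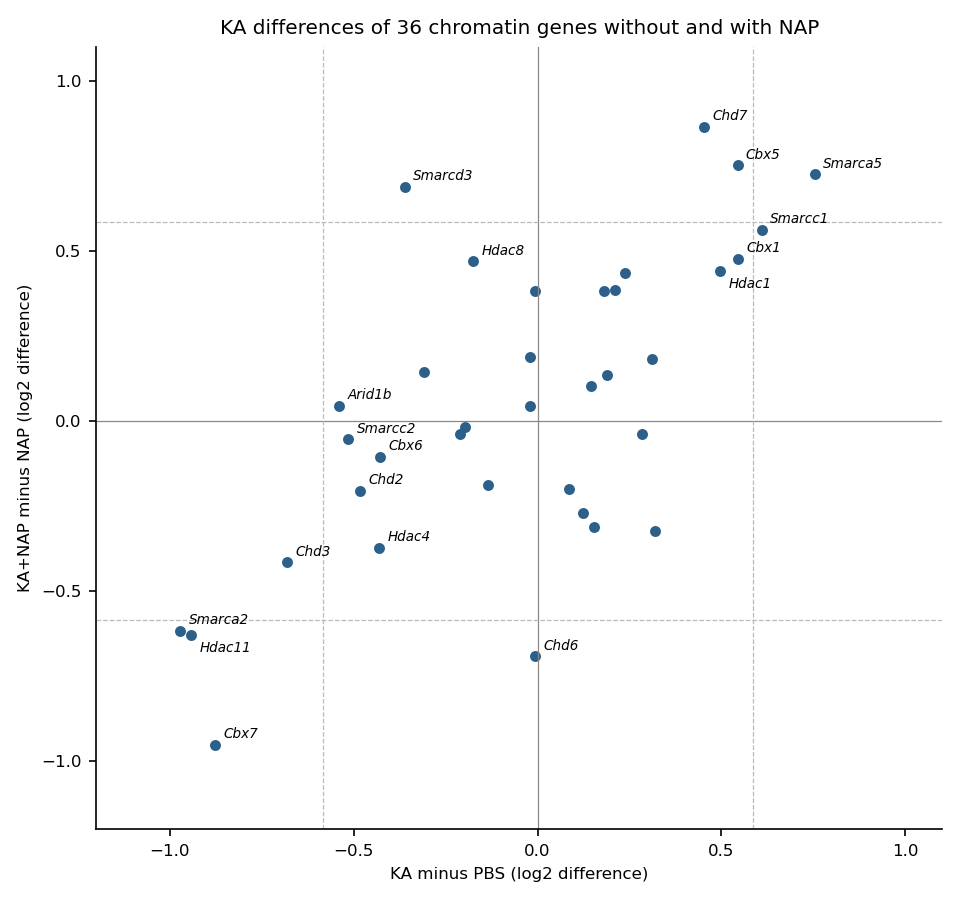
Log2 difference of KA minus PBS (horizontal) against KA+NAP minus NAP (vertical), 1 point for each of the 36 genes above the intensity limit, with dashed lines at 1.5-fold. Smarca2, Hdac11 and Cbx7 lie past both lines at lower left and Smarca5 past both at upper right, while Smarcd3 lies at upper left with −0.36 and 0.69.

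The SWI/SNF ATPases went opposite ways. Smarca2, which encodes the ATPase BRM, had an intensity of 986 with PBS, 945 with NAP, 498 with KA and 613 with KA+NAP. Both arrays with KA were low, 1.96-fold below PBS without the peptide (log2 −0.97) and 1.53-fold below NAP with it (−0.62). Its second probe set above the limit read 110 with PBS, 156 with NAP, 55 with KA and 110 with KA+NAP. That probe set was lower as well, by −0.88 and −0.47, but its KA+NAP value equalled its PBS value. Averaged over both, the difference in KA+NAP minus NAP was −0.54, short of 1.5-fold. Smarca4, the alternative ATPase BRG1, read 1040 with PBS, 1082 with NAP, 1205 with KA and 1416 with KA+NAP. It was thus slightly higher on both arrays with KA, by 0.21 and 0.39, and its 3 probe sets above the limit all lay above 0 in both.

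The core and accessory subunits of SWI/SNF were mixed, with medians of −0.01 and −0.02 over 7 genes. Smarcc1 (BAF155), the scaffold subunit abundant in progenitors, read 146 with PBS, 145 with NAP, 228 with KA and 219 with KA+NAP. The arrays with and without KA did not overlap, and the differences were 0.61 and 0.56, 1.53-fold and 1.48-fold. Its paralogue Smarcc2 (BAF170) read 523 with PBS, 482 with NAP, 363 with KA and 464 with KA+NAP, lower by −0.51 without the peptide and by −0.05 with it. Its other probe sets above the limit did not follow it. The first of them differed by −0.40 and 0.84. The other read 9 with PBS against 91 to 118 on the remaining arrays, so no direction is read for Smarcc2. Smarcd3 (BAF60C), an interchangeable subunit, read 311 with PBS, 240 with KA, 235 with NAP and 385 with KA+NAP. It was lower in KA minus PBS (−0.36) and higher in KA+NAP minus NAP (0.69), and it has 1 probe set. Its relatives Smarcd1 (142 to 188) and Smarcd2 (65 to 76) stayed within 1.5-fold in both. So did the core subunit Smarcb1 (342 to 428) and the DNA-binding subunit Smarce1 (2189 to 2669), whose 3 probe sets pointed to different sides in both differences.

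The ARID subunits, which help direct SWI/SNF to DNA and separate BAF from PBAF complexes, also stayed within 1.5-fold. Arid1a read 416 to 475 and Arid2, of PBAF, 342 to 391. Arid1b read 2966 with PBS, 2170 with NAP, 2038 with KA and 2239 with KA+NAP. The PBS array stood above the other 3, so the difference was −0.54 against PBS and 0.04 against NAP. Its brightest probe set carries the suffix for probes that can bind related sequences, and its other 2 above the limit differed by −0.40 and −0.23 in KA minus PBS.

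Smarca5, the ISWI ATPase SNF2H, read 740 with PBS, 686 with NAP, 1255 with KA and 1142 with KA+NAP. Both arrays with KA were high, 1.69-fold above PBS (0.75) and 1.66-fold above NAP (0.73). Its other probe sets showed less. 1 read 719, 697, 881 and 788 in the same order of arrays, differences of 0.29 and 0.17, and the other differed by 0.09 and 0.02. The mean of all 3 was 0.38 and 0.31, short of 1.5-fold. Smarca1, the ISWI paralogue SNF2L, read 438 with PBS and 353 to 377 on the other arrays, with differences of −0.21 and −0.04. The related ATPase Smarcad1, which acts on nucleosomes behind replication forks, read 203 with PBS, 256 with KA, 269 with NAP and 213 with KA+NAP, 0.32 without and −0.32 with the peptide. Smarcal1, which remodels stalled forks, differed by 0.18 and 0.38 (110 to 149).

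Among the 8 CHD remodellers, 1 was at least 1.5-fold lower in KA minus PBS (9.66% of all genes). In KA+NAP minus NAP 1 was higher (13.9% of all genes) and 1 lower (9.41%). Chd3, an ATPase of the NuRD repressor complex, read 466 with PBS, 621 with NAP, 287 with KA and 463 with KA+NAP. It was lower by −0.68 and −0.42 against its control arrays, but the KA+NAP value was close to that of PBS. Chd4, the alternative NuRD ATPase and a partner of ADNP, read 471 with PBS, 468 with NAP, 557 with KA and 636 with KA+NAP. It was higher by 0.24 and 0.43, and its second probe set by 0.54 and 0.84. Chd7, an ATPase of enhancers in neural progenitors, read 58 with PBS, 69 with NAP, 83 with KA and 134 with KA+NAP. This dim gene differed by 0.45 and 0.87, and its second probe set above the limit by 0.19 and 0.92. Chd6 read 227 with PBS, 226 with KA, 300 with NAP and 182 with KA+NAP, a difference of −0.01 in KA minus PBS and of −0.69 in KA+NAP minus NAP. Chd2 lay lower on both arrays with KA, at 221 and 253 against 313 and 293. On their brightest probe sets, Chd1 (150 to 181), Chd8 (357 to 445) and Chd9 (363 to 419) stayed within −0.31 and 0.15 in both. The second Chd1 probe set above the limit read 78 with PBS, 93 with NAP, 116 with KA and 123 with KA+NAP. It was higher by 0.52 and 0.37, and by 0.60 in KA+NAP minus PBS.

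Of the chromobox genes, 2 HP1 and 2 Polycomb members were above the limit. Cbx5 (HP1 alpha) read 252 with PBS, 272 with NAP, 372 with KA and 465 with KA+NAP, higher by 0.54 and 0.75. Cbx1 (HP1 beta) read 310, 311, 457 and 437 in the same order, higher by 0.55 and 0.48. Both HP1 genes were thus higher on both arrays with KA. The second Cbx1 probe set above the limit differed by 0.10 and 0.64. On the Polycomb side, Cbx7 read 295 with PBS, 284 with NAP, 156 with KA and 142 with KA+NAP. It was 1.84-fold lower without the peptide (−0.88) and 1.93-fold lower with it (−0.95), on a single probe set. Cbx6 read 1995 with PBS, 1716 with NAP, 1481 with KA and 1595 with KA+NAP, −0.43 and −0.10, and its second probe set gave −0.43 and −0.22. Cbx3, Chd5 and Hdac9 were not analysed here.

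Among the histone deacetylases, Hdac11, the class IV enzyme, was lowest relative to its controls. It read 363 with PBS, 380 with NAP, 184 with KA and 242 with KA+NAP, 1.92-fold lower (−0.94) and 1.55-fold lower (−0.63). The class I enzyme Hdac1, a subunit of NuRD and CoREST, read 126 with PBS, 130 with NAP, 182 with KA and 180 with KA+NAP. It was higher by 0.50 and 0.44, with no overlap between arrays with and without KA, and short of 1.5-fold. Its usual partner Hdac2 differed by 0.19 and 0.14 (1892 to 2342), and Hdac3, of the NCoR complex, by −0.02 and 0.04 (379 to 393). Hdac8 read 199 with PBS, 166 with NAP, 175 with KA and 234 with KA+NAP, −0.18 without and 0.47 with the peptide. Among class IIa enzymes, which shuttle between nucleus and cytoplasm with neuronal activity, Hdac4 read 106 with PBS, 100 with NAP, 76 with KA and 75 with KA+NAP. It was lower by −0.43 and −0.37, whereas Hdac5 was higher by 0.31 and 0.18 (276 to 419). The tubulin deacetylase Hdac6 differed by 0.12 and −0.27 (451 to 553).

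In all, 1 member was at least 1.5-fold higher in both KA differences (7.70% of all genes) and 3 were at least 1.5-fold lower in both (4.17%). At 2-fold in both there was no member, where 3.13% of all genes were higher and 0.885% lower. Of 13 members with several probe sets above the limit, 10 had all of them on one side of 0 in KA minus PBS and 9 in KA+NAP minus NAP. The exceptions were Arid2, Smarcc2 and Smarce1 in the former and Arid1a, Arid1b, Smarcc2 and Smarce1 in the latter.

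The paralogue pairs of SWI/SNF and NuRD were set beside subunits from lists of related complexes. Actl6a (BAF53a), the actin-like subunit of progenitor complexes, read 201 with PBS, 231 with NAP, 347 with KA and 410 with KA+NAP, higher by 0.76 and 0.80. Its neuronal counterpart Actl6b (BAF53b) read 359, 313, 258 and 272 in the same order, −0.46 and −0.20. Dpf1 (BAF45b), also neuronal, differed by −0.64 and −0.18, and Bcl11b, a neuronal SWI/SNF-associated factor, by −0.84 and −0.38. Ss18, of progenitor complexes, differed by 0.55 and 0.65. Others on the list differed little: Dpf2 by 0.09 and 0.03, Brd9 by 0.26 and 0.07, Pbrm1 by −0.01 and 0.03, and Bcl7b by 0.22 and −0.03. Over the whole list, 8 lay above 0 and 6 below in KA minus PBS, and 7 and 7 in KA+NAP minus NAP. Of 14 other SWI/SNF subunits above the limit, 1 was at least 1.5-fold higher and 3 lower in KA minus PBS, with a median of 0.15. In KA+NAP minus NAP, 3 were at least 1.5-fold higher (13.9% of all genes) and 0 lower (9.41%). The median there was 0.00, and Bcl7c reached 1.48.

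The Polycomb methyltransferases showed the widest separation of the 5 pairs plotted. Ezh1, the form typical of resting cells, read 693 with PBS, 691 with NAP, 372 with KA and 350 with KA+NAP, −0.88 and −0.96. Ezh2, the form of dividing cells, read 48 with PBS, 59 with NAP, 107 with KA and 150 with KA+NAP, 1.01 and 1.21. Of 15 Polycomb partners above the limit, 4 were at least 1.5-fold higher and 1 lower in KA minus PBS, and 3 and 1 in KA+NAP minus NAP, with medians of 0.20 and 0.06. For this and the lists below, the shares of all genes were 12.5% higher and 9.66% lower in the former, and 13.9% and 9.41% in the latter. Of 12 heterochromatin partners, 4 and 3 were at least 1.5-fold higher and 0 lower in either, with medians of 0.36 and 0.16. In KA minus PBS the highest were Uhrf1, which recruits maintenance DNA methylation at replication, and the DNA methyltransferase Dnmt3a, each at 1.23. In KA+NAP minus NAP they were Uhrf1 at 1.54 and Lmnb1 (lamin B1, of the nuclear lamina) at 1.17, with Dnmt3a at 0.27. Of 12 NuRD and CoREST partners, 2 were higher and 1 lower by 1.5-fold in KA minus PBS, and 3 and 1 in KA+NAP minus NAP. Mta3 was lowest at −0.63 and −1.19. Of 5 ISWI partners, 1 was past 1.5-fold, Baz1a (ACF1), which pairs with the Smarca5 protein. It read 46 with PBS, 62 with NAP, 195 with KA and 204 with KA+NAP, 1.87 and 1.57. Adnp itself read 1386 with PBS and with NAP, 1566 with KA and 1548 with KA+NAP, 0.17 and 0.16. Of the 5 genes listed with it, Mapre3 (EB3, a microtubule end protein that NAP binds) was the 1 past 1.5-fold, at −0.60 and −0.62.

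**Figure D3:**
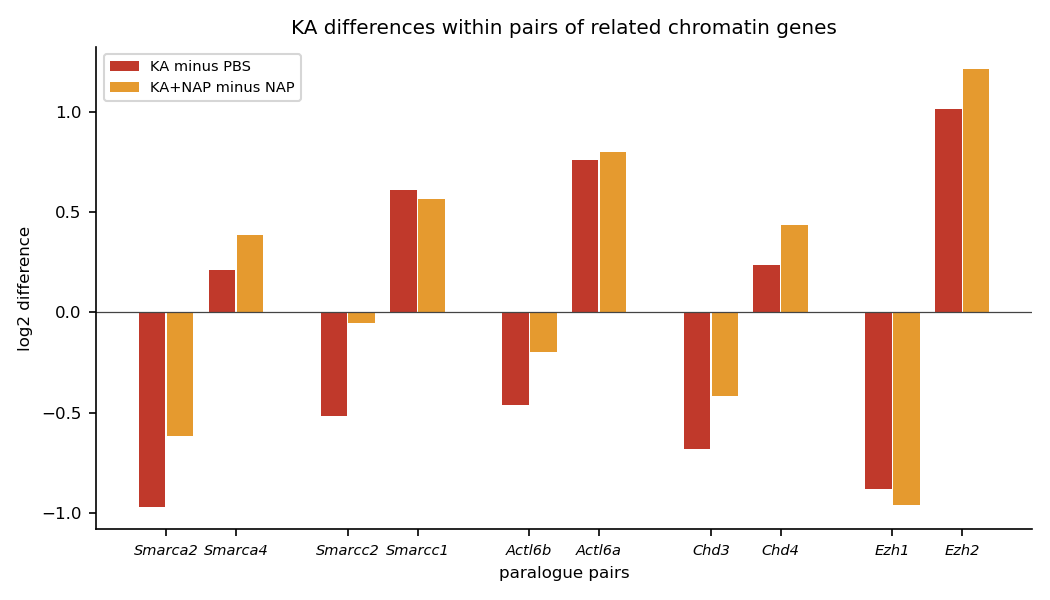
Log2 differences of KA minus PBS and KA+NAP minus NAP (bars from 0) for 5 pairs of related genes, each bar a difference of 2 single arrays. On the brightest probe sets drawn, the left gene of each pair lies below 0 and the right gene above 0 in both differences. The other Smarcc2 probe sets above the limit did not lie below 0 in both, so no direction is read for Smarcc2. Ezh1 lies at −0.88 and −0.96 and Ezh2 at 1.01 and 1.21. The pairs were chosen for display after their values were seen.

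The KA+NAP array was set against the KA array to see the peptide in injured tissue. Here 3 of 36 members were at least 1.5-fold higher (6.58% of all genes) and 0 lower (2.89%). None was 2-fold apart, where 1.52% of all genes were higher and 0.601% lower. The median member differed by 0.12, against 0.03 over all genes. The 3 were Chd3 at 0.67 (287 with KA, 463 with KA+NAP), Smarcd3 at 0.66 (240 and 385) and Chd7 at 0.63 (83 and 134). Chd3 and Smarcd3 were below PBS on the KA array, and Chd7 was above it. Next were Hdac8 at 0.40 and Hdac11 at 0.38. The lowest were Smarcb1 at −0.32, Chd6 at −0.30, Hdac6 at −0.29, Smarcad1 at −0.25 and Chd9 at −0.20. Among members that KA separated from PBS, Smarca2 differed by 0.29, Cbx5 by 0.31, Smarca5 by −0.13, Cbx7 by −0.13, Cbx1 by −0.06, Smarcc1 by −0.06 and Hdac1 by −0.02. The KA+NAP values of Hdac11 and of the brightest Smarca2 probe set stayed below both arrays without KA. The second Smarca2 probe set above the limit was 0.88 higher with KA+NAP than with KA, and its KA+NAP value of 110 equalled its PBS value.

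NAP was compared with PBS to describe the peptide without the toxin. No member was 1.5-fold apart in this comparison on its brightest probe set, where 4.05% of all genes were higher and 1.73% lower (1.05% and 0.242% at 2-fold). Of 13 members with several probe sets above the limit, 5 had all of them on one side of 0 here. Secondary probe sets differed by as much as −0.77 (Arid1a), −0.97 (Smarce1) and 2.75 (Smarcc2, at 9 with PBS). The median was 0.00 among members and 0.02 over all genes, and the median absolute difference was 0.11 among members and 0.16 over all genes. The highest were Chd3 at 0.41 (466 to 621), Hdac5 at 0.40 (276 to 368), Smarcad1 at 0.39, Chd6 at 0.39 and Chd7 at 0.22. The lowest were Arid1b at −0.45, Smarcd3 at −0.39 (311 to 235), Smarca1 at −0.26, Hdac8 at −0.25 and Smarcd1 at −0.22. Cbx1 read 310 and 311 and Smarcc1 146 and 145. The 2 NAP differences share no array, and across the 36 members they correlated at r = −0.15 and rho = −0.14. 14 members lay on the same side of 0 in both, which is 38.9%, against 49.9% of all genes. Chd3 was on the higher side in both, and so was Chd7 on its brightest probe set. The second Chd7 probe set above the limit read 63 with PBS and 53 with NAP, a difference of −0.21. Smarcd3 was at 0.66 with KA and −0.39 without it.

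**Figure D4:**
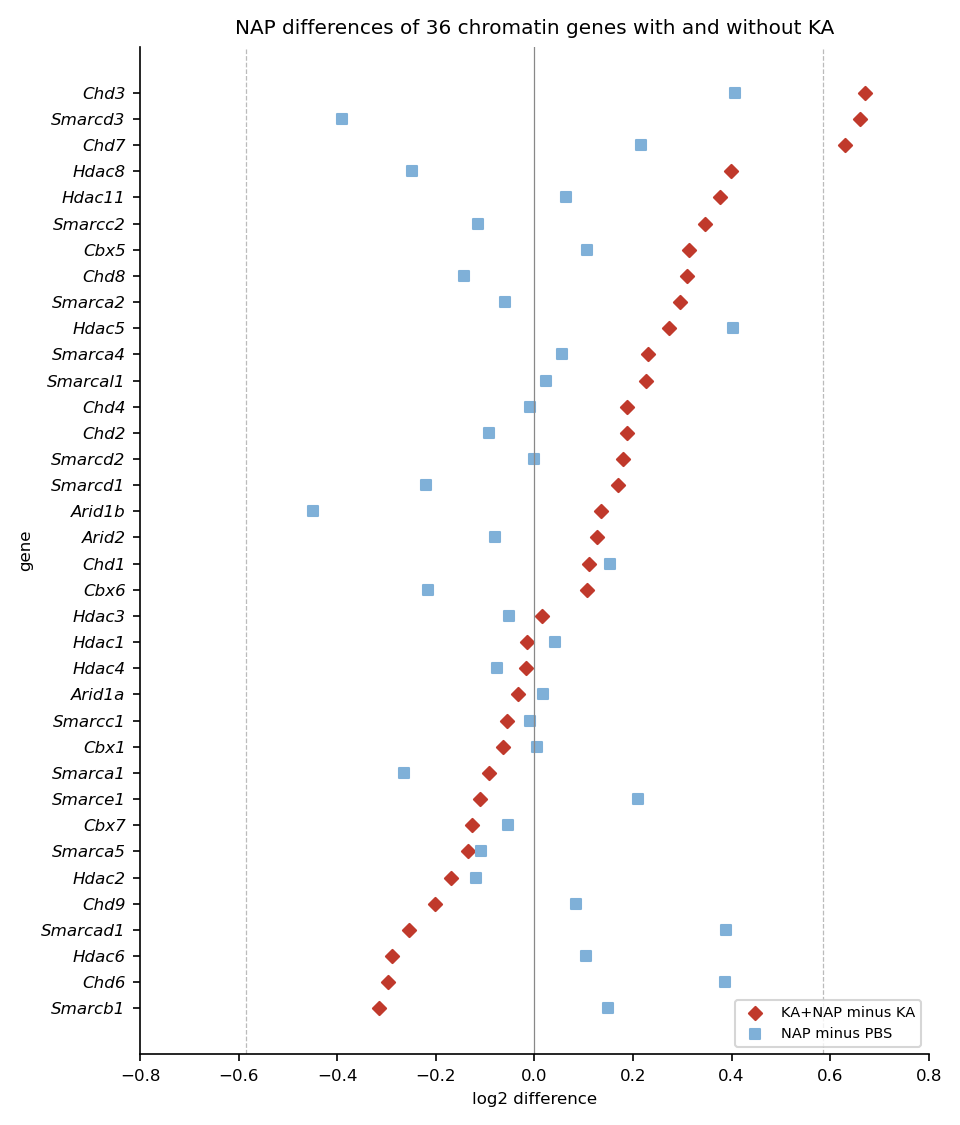
Log2 differences of KA+NAP minus KA (diamonds) and NAP minus PBS (squares) for the 36 genes above the intensity limit, ordered by the first, with dashed lines at 1.5-fold. Chd3, Smarcd3 and Chd7 lie past the line in KA+NAP minus KA, and no square lies past it.

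KA+NAP was set beside PBS as the combined treatment against vehicle. 4 of 36 members were at least 1.5-fold higher (16.1% of all genes) and 2 were at least 1.5-fold lower (9.44%). These were Chd7 at 1.08, Cbx5 at 0.86, Smarca5 at 0.62 and Hdac5 at 0.58 (exactly 1.5-fold), and Cbx7, 2.01-fold lower, and Smarca2 at −0.68. Of the 3 among them with several probe sets above the limit, 1 had all on one side of 0, which was Chd7. The other Smarca5 probe sets differed by 0.13 and −0.21, and the second of Smarca2 by 0.00. Chd7 was the 1 member past 2-fold higher and Cbx7 the 1 past 2-fold lower, where 7.42% and 2.13% of all genes were. Both lay close to 2-fold, and each fell short of it with a pseudocount of 50.

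Markers of cell types differed between the same arrays, and in bulk tissue fewer cells of a type cannot be told apart from less RNA per cell. All 12 pan-neuronal markers were above the limit, and their summed intensity was 50874 with PBS, 47233 with NAP, 37619 with KA and 37201 with KA+NAP. The 10 of 12 CA3 and excitatory neuron markers above it, among them Grik4, Bok and Neurod1, summed to 9098, 7996, 5931 and 5360 in the same order. Their median was −0.57 in KA minus PBS, with 1 above 0 and 9 below. In KA+NAP minus NAP the median was −0.72, with 2 above 0 and 8 below. Camk2a, on the same list, lay above 0 in both, at 0.14 and 0.33. This list mixes CA3 genes with general excitatory neuron genes, so it cannot show that the tissue was CA3 alone. Iyd, on the same list, was dim at 1 to 12. CA1 and dentate markers (7 of 10) summed to 5326, 5074, 3256 and 4025. Their median difference was −2.04 in KA minus PBS, with 5 of 7 at least 2-fold lower, 0.38 in KA+NAP minus NAP, 1.07 in KA+NAP minus KA and −0.55 in NAP minus PBS. Fibcd1, a CA1 marker, read 368 with PBS, 86 with NAP, 72 with KA and 226 with KA+NAP. The arrays thus also differed in markers of neighbouring hippocampal fields. Proliferating cell markers (9 of 15) summed to 1384, 2096, 3347 and 4622, with Mki67 at 24, 57, 81 and 250. Reactive astrocyte markers (9 of 10) summed to 1834, 3945, 12260 and 16897, and microglia and macrophage markers (13 of 14) to 3348, 3539, 2847 and 5228. That microglia and macrophage sum hid a split in KA minus PBS, where the median was 0.14, with 9 markers above 0 and 4 below. There 5 were at least 2-fold higher, among them Cd68 and Cd14, and 2 at least 2-fold lower, P2ry12 and Tmem119. P2ry12 alone read 1071 with PBS and 232 with KA. Infiltrating myeloid markers (6 of 8) summed to 1636, 3782, 3494 and 6725. Most of that myeloid sum was Lyz2, which read 1410 with PBS, 3483 with NAP, 2757 with KA and 5292 with KA+NAP. The median myeloid marker differed by 1.27 in KA minus PBS, where all 6 lay above 0. In NAP minus PBS the myeloid median was 0.57, and 4 lay above 0 and 2 below. Astrocyte, oligodendrocyte, interneuron, endothelial, meningeal and choroid plexus lists were also measured. Their medians in KA minus PBS were −0.29, −0.04, −0.09, 0.20, −0.08 and 0.19. The meningeal and fibroblast markers (7 of 8) summed to 1101 with PBS, 2233 with NAP, 929 with KA and 1365 with KA+NAP. Their median was 1.34 in NAP minus PBS, with 5 of 7 at least 2-fold higher, and −0.80 in KA+NAP minus NAP. The endothelial median (6 of 8) was 0.58 in NAP minus PBS and 0.54 in KA+NAP minus KA. Ttr, a choroid plexus marker, read 354 with PBS, 359 with NAP, 453 with KA and 76 with KA+NAP. The meningeal sum was thus highest with NAP, and Ttr was lowest with KA+NAP. No listed marker was at 0 on any array. The part of these cell types in the member differences was not tested.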

How the data were processed

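Per the submitters' processing notes, the authors computed probe set intensities with MAS5, and the deposited values are whole-number linear intensities. Per the labels' protocols, cRNA was made from 500 ng of total RNA by two-cycle amplification, which favours 3′ ends. The trimmed mean intensity was 250.08 on every array, so the deposited table was already scaled. The MAS5 version, detection calls and genome build were not given in the sources used here, and signal over background was not looked at. Symbols were those of the platform annotation, updated through Entrez identifiers to the GRCr8 gene table: 20826 probe sets had 1 symbol, 436 several, 9780 were not listed and 57 were controls.

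Differences of log2(intensity + 10) were formed in Python 3.11.15 with pandas 2.3.3 and checked on simulated data. The members, gene lists and tests were chosen with earlier results of these data known. Members past 1.5-fold, or among the 5 highest or lowest of a comparison, were named with values. 7 alternatives were run: pseudocounts of 1 and 50, no filter, a filter at the 75th percentile, the mean of probe sets, quantile normalization and median centring. The number of arrays, 1 a group, limits the precision.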

Additional observations from a re-analysis of the deposited data

Results flagged for a closer look

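3 members were singled out because their KA differences without and with NAP lay on opposite sides of 0 and at least 1.5-fold apart. Smarcd3 differed by −0.36 in KA minus PBS and by 0.69 in KA+NAP minus NAP, so the second exceeded the first by 1.05. Hdac8 differed by −0.18 and 0.47, a gap of 0.65. Smarcad1 differed by 0.32 and −0.32, a gap of −0.64. With 1 array a group these gaps were not tested. Such gaps were found for 8.33% of the 36 members and for 8.93% of all genes above the intensity limit.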

How the results depend on the processing

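Of the 189 values of counts and medians under alternatives, 164 kept their size and 25 moved; none reversed. In KA minus PBS, the count of members at least 1.5-fold higher was 1 in place of 2 with a pseudocount of 50, the 75th percentile filter, averaged probe sets, quantile normalization or median centring, and 2 were 2-fold lower with centring. In KA+NAP minus NAP, 2 were 1.5-fold lower with the 75th percentile filter, 1 was 2-fold lower with quantile normalization or centring, and the median was 0.15 with averaged probe sets. In NAP minus PBS, 2 were 1.5-fold higher with no filter and 1 with averaged probe sets. In KA+NAP minus PBS, 2 were 1.5-fold higher with centring; 1 was 1.5-fold lower with the 75th percentile filter or averaged probe sets and 4 with quantile normalization; 0 were 2-fold higher under 5 alternatives (pseudocount of 50, 75th percentile filter, averaged probe sets, quantile normalization, centring); and 0 were 2-fold lower with a pseudocount of 50 or the 75th percentile filter. In both KA differences together, counted as an alternative chosen after seeing the data, 2 were 1.5-fold higher with a pseudocount of 1 and 0 with averaged probe sets. The causes were not tested, apart from the filters, which change which genes enter. Of 23 single differences past 1.5-fold, 14 kept that size under every alternative run. Under the 2 scalings no member with a difference over 0.07 changed sign. No paired analysis was possible because each group has 1 array.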

Other observations

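Secondary probe sets of the members held values that the comparisons by brightest probe set did not use. The third Smarcc2 probe set by brightness read 9 with PBS, 91 with KA, 95 with KA+NAP and 118 with NAP, and the fourth, which was dim, read 6, 29, 24 and 23. A second Chd9 probe set read 52 with PBS, 16 with KA, 36 with KA+NAP and 39 with NAP, while the brighter one stayed between 363 and 419. The dimmest Chd4 probe set read 4 with PBS, 27 with KA, 46 with KA+NAP and 19 with NAP, the same order of arrays with and without KA as its 2 brighter ones. The third Smarce1 probe set read 123 with PBS, 94 with KA, 114 with KA+NAP and 58 with NAP, against 2189 to 2669 for the brightest.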
